A study of Homo sapiens with 10 samples.

Results

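Heat shock chaperones were followed through RNA-seq libraries of HAP1 cells as a set of 10 genes that are rows of both count tables: HSPA1A, HSPA1B, HSPA8, HSPA5, HSPH1, HSP90AA1, HSPB1, HSPD1, DNAJB1 and BAG3. The tables hold 59453 genes, and all 10 chaperones were present and passed the filter on low counts in every fit. HAP1 is a near-haploid, adherent human line derived from the leukaemia line KBM-7. The cells were wild type (WT), MUTYH knockout, OGG1 knockout or knockout of both genes (DKO), with each gene disrupted by a small CRISPR-Cas9 insertion or deletion, and each genotype was sequenced untreated as 2 clones. The 2 remaining libraries came from WT clones 2 and 11 that had received 100 µM H2O2 24 hours before harvest. Each library is thus 1 clone in 1 condition, and both DKO clones were derived from a single OGG1 knockout clone, so the spread within DKO does not hold the differences between separate OGG1 knockout events. OGG1 removes oxidized guanine from DNA, and MUTYH removes the adenine that can be paired with it.

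Molecular chaperones bind unfolded or partly folded proteins and keep them from aggregating. Hsp70 proteins do this in cycles of ATP hydrolysis that Hsp40 co-chaperones start and that nucleotide exchange factors such as Hsp110 and BAG proteins end, and Hsp90 takes over many of their clients. The cytosolic genes are the classic targets of the transcription factor HSF1, which binds heat shock elements when unfolded proteins accumulate, as after heat or oxidative damage. The chaperone of the endoplasmic reticulum (ER), HSPA5, is instead a target of the unfolded protein response, which acts through the ER stress element.

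Total counts were even, at 22225091 to 22674964 per library, of which the 10 chaperones took 0.772% to 1.05%. Markers of blood cells (PTPRC, SPI1, CD33, CD34, GATA1 and ITGAM) reached at most 1.04 CPM in any library, while the filament genes checked for adherent cells were at 8.54 to 45.5 CPM (KRT8), 27.6 to 54.3 CPM (KRT18) and 197 to 495 CPM (VIM, which blood cells also express). KRT8 was at 8.54 to 29.7 CPM in the libraries of WT and MUTYH knockout, treated ones included, and at 37.5 to 45.5 CPM in those of OGG1 knockout and DKO, and its part in the comparisons of these groups was not tested. The OGG1 transcript stood at 1.22 CPM in OGG1 knockout clone 1 and at 11.3 CPM in clone 22, against 13.1 and 12.3 CPM in the WT clones. MUTYH stood at 4.65 and 3.64 CPM in the MUTYH knockout clones against 3.95 and 4.69 CPM in WT. A gene with a small insertion or deletion is still counted, so apart from OGG1 in clone 1 these levels did not check the labels. Levels are given as CPM (counts divided by the library size, on the usual scale) after TMM normalization over the 10 libraries. In bulk RNA a lower level in each cell and a smaller share of cells with the transcript cannot be told apart.

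The upstream sequences below are shown because they hold the elements of the responses named above, in the most variable chaperone, HSPA5, and in cytosolic Hsp70 genes. They are from the RefSeq promoter table on GRCh38.p14, 5′ to 3′ on the strand of the gene, and all 10 chaperones matched an entry. HSPA5, on the minus strand of chromosome 9, has its sequence at chr9:125241383-125241593. The capitals mark the only exact match to the ER stress element as searched here, and near matches were not marked. Its first base lies 66 bases before the RefSeq gene start. HSPA1A, at chr6:31815293-31815542, and HSPA1B, at chr6:31827488-31827737, both on the plus strand, have capitals at 2 adjacent heat shock units. The upper of the HSPA8 sites, on the minus strand of chromosome 11 at chr11:123062349-123062371, and the lower, at chr11:123062174-123062196, have capitals at heat shock elements of 3 units, which start 230 and 55 bases before the RefSeq gene start. GENCODE places the start of HSPA8 further upstream, so both sites lie within its annotated span.
HSPA5: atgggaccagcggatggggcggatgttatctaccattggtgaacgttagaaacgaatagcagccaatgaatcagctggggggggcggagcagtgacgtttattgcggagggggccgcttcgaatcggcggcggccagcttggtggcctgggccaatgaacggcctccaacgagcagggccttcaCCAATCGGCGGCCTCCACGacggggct
HSPA1A: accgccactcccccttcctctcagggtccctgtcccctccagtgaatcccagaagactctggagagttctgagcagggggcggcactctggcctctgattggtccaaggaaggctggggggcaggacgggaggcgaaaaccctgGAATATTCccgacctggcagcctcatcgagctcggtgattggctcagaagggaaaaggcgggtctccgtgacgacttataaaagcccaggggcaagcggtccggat
HSPA1B: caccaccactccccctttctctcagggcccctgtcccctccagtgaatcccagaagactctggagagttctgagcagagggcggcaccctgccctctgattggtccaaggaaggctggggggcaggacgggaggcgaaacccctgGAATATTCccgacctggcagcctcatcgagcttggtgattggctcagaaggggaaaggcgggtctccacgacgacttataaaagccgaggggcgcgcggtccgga
HSPA8, upper site: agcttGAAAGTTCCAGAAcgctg
HSPA8, lower site: gccccTTCTGGAAGGTTCtaaga

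The search covered both strands of the 250 bases before the start in 35116 promoters. The heat shock element of 3 inverted units, GAANNTTCNNGAA, was in 0.441% of promoters and, among the chaperones, in HSPA8 alone. Its 2-unit part, GAANNTTC or TTCNNGAA, was in 11.6% of promoters and in HSPA1A, HSPA1B, HSPB1 and HSPA8. The ER stress element, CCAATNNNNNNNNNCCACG, was in 0.074% of promoters and, among the chaperones, in HSPA5 alone. It contains the CCAAT box, which was in 32% of promoters and in 6 of the 10 chaperones. These are exact matches of letters in a fixed window, so bound sites with other letters, with other spacing or further away were not counted. Only the bases before the start in the promoter table were searched, so any other start of a gene was not covered. The windows of HSPA8, HSPD1 and DNAJB1 lay within annotated exons. The windows of HSPA1A and HSPA1B were 93.6% identical (235 of 251 aligned columns).

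The 10 genes spanned a wide range of abundance. To compare genes, CPM was divided by the summed exon length in kilobases, and the median over the 8 untreated libraries is given. HSP90AA1, the stress-inducible cytosolic Hsp90, and HSPA8, the constitutive Hsp70, led with 555 and 552 CPM per kb. HSPB1, a small heat shock protein, and HSPD1, the chaperonin of the mitochondrial matrix, followed with 207 CPM per kb each. The inducible Hsp70 gene HSPA1A had 123 CPM per kb and the ER Hsp70 HSPA5 had 116. HSPA1B had 53.7, the Hsp110 gene HSPH1 had 43.2, the co-chaperone BAG3 had 16.3 and the Hsp40 DNAJB1 had 11.1 CPM per kb. In this order the ranges over the untreated libraries overlapped between HSP90AA1 and HSPA8, between HSPB1 and HSPD1, between HSPA1A and HSPA5, and between HSPA1B and HSPH1, and the other neighbours did not overlap. Exon lengths are those of all annotated transcripts of a gene together, which understates genes with long rare transcripts such as DNAJB1.

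Reads could be shared within some of these loci. HSPA1A (chromosome 6, 31815543-31817946, plus strand) and HSPA1B (31827738-31830254, plus strand) encode almost the same protein, and whether reads with several alignments were counted is not given in the sources used here, so their split is uncertain. HSPA1A took 67.5% to 70.1% of their joint counts in every library. HSPD1 (chromosome 2, 197486584-197516737, minus strand) overlaps HSPE1 and MOB4 on the other strand, HSP90AA1 (chromosome 14, 102080742-102139699, minus strand) overlaps WDR20, and DNAJB1 (chromosome 19, 14514769-14560391, minus strand) overlaps TECR. HSPA8 (chromosome 11, 123057489-123063230, minus strand) holds small nucleolar RNA genes in its introns and overlaps an unnamed gene on the other strand. HSPA1B overlaps an unnamed gene on its own strand. HSPA5 (chromosome 9, 125234853-125241382, minus strand), HSPH1 (chromosome 13, 31134973-31162388, minus strand), HSPB1 (chromosome 7, 76302673-76304295, plus strand) and BAG3 (chromosome 10, 119651380-119677819, plus strand) overlap no other annotated gene. Positions are of GENCODE v44 on GRCh38.

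**Figure D1:**
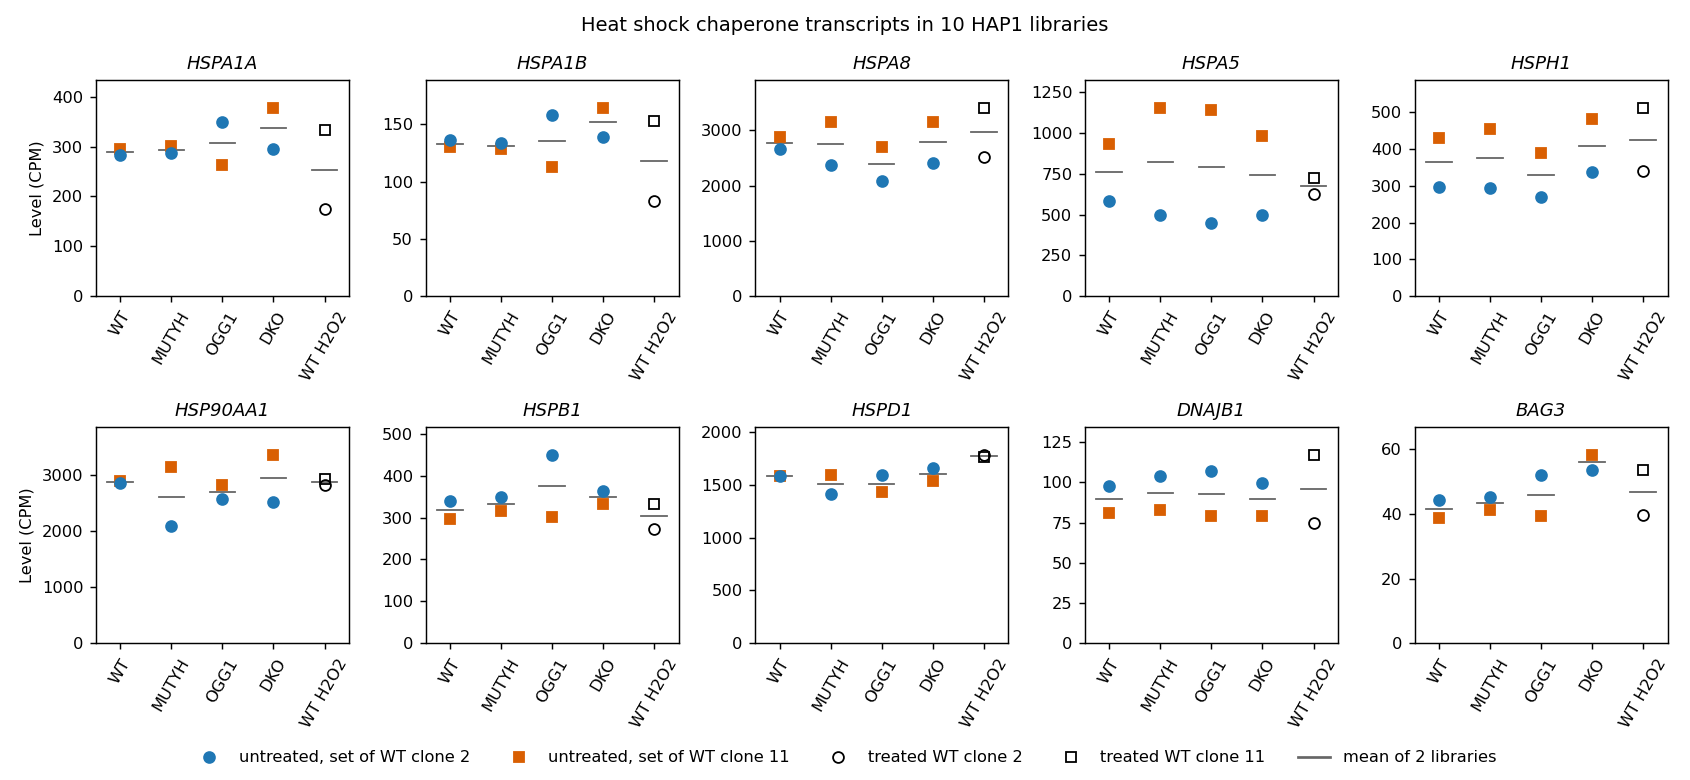
Level of each chaperone in CPM (y axes from 0, a separate scale per gene) in the 10 libraries, with the genotype or treatment on the x axis, 1 point per library and a line at the mean of 2. HSPA5 lies between 934 and 1155 CPM in the squares and between 448 and 586 CPM in the filled circles of every untreated genotype, and the treated WT clones part for HSPA1A at 175 and 333 CPM.

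HSPA5, also known as BiP, varied more than any other chaperone, and its level followed a division of the untreated libraries that crosses every genotype. It stood at 934 CPM in WT clone 11, 1155 CPM in MUTYH knockout clone 7, 1144 CPM in OGG1 knockout clone 1 and 984 CPM in DKO clone 4. It stood at 586 CPM in WT clone 2, 496 CPM in MUTYH knockout clone 8, 448 CPM in OGG1 knockout clone 22 and 501 CPM in DKO clone 14. One clone of each genotype was thus high and the other low, with no overlap. The means of the high and low libraries were 1054 and 508 CPM, a ratio of 2.08.

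This division was found in these data over all genes, no label names it, and it is described here without a test. With the chaperones and all listed genes left out, the first principal component of 17786 genes (31% of the variance) placed WT clone 11, clone 7 of MUTYH knockout, clone 1 of OGG1 knockout and clone 4 of DKO at scores of 15.9 to 43.9, and the other 4 at -44.5 to -22.2. The former are called the set of WT clone 11 and the latter the set of WT clone 2. Mitochondrial genes took 5.14% to 7.46% of the counts in the set of WT clone 11 and 3.75% to 5.02% in the set of WT clone 2, and the part of this difference in the values was not tested. Over all 17881 genes tested, 14.1% were higher in the set of WT clone 11 without overlap, and 15.1% were lower.

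Of the 10 chaperones, 5 separated these sets. Besides HSPA5, the set of WT clone 11 was higher for HSPH1, the nucleotide exchange factor of Hsp70, at 389 to 481 CPM against 269 to 336 CPM (ratio of means 1.47). It was also higher for HSPA8, at 2691 to 3154 CPM against 2087 to 2662 CPM (ratio 1.25). The set of WT clone 2 was higher for DNAJB1, which hands substrates to Hsp70, at 98.0 to 107 CPM against 78.8 to 83.1 CPM (ratio 1.27). It was also higher for HSPB1, at 339.8 to 449 CPM against 296 to 334 CPM (ratio 1.21). HSPA1A, HSPA1B, HSP90AA1, HSPD1 and BAG3 overlapped between the sets. The cytosolic genes were thus divided, with some higher in one set and some in the other.

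**Figure D2:**
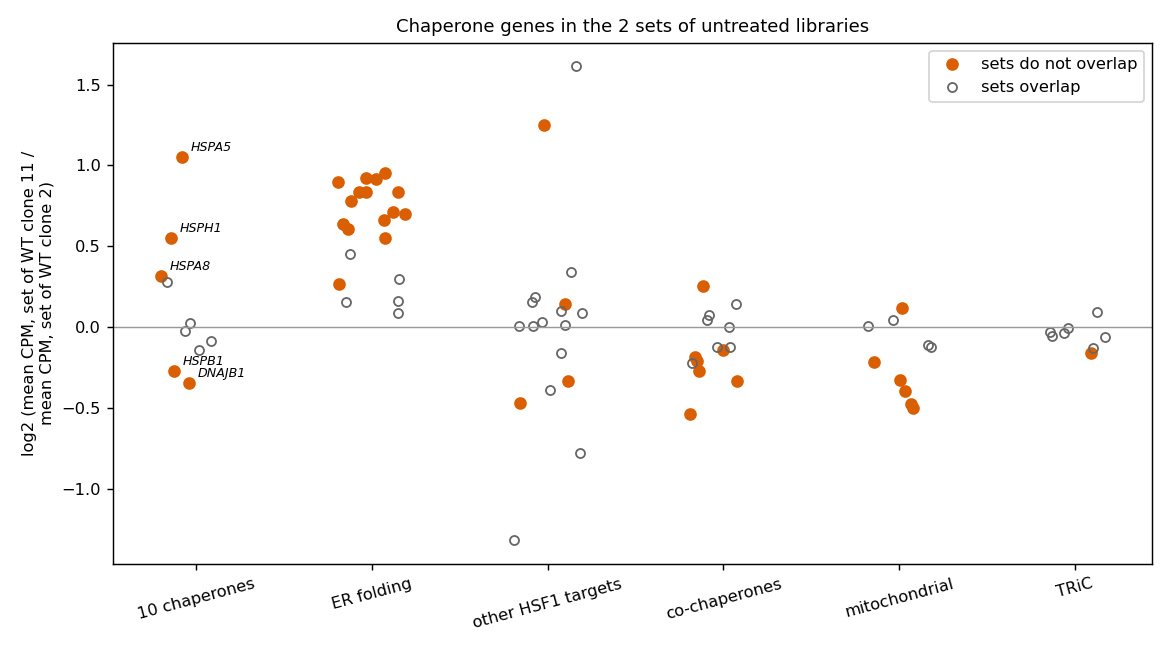
Ratio of mean CPM in the set of WT clone 11 to that in the set of WT clone 2 on a log2 scale (y axis) for the chaperones and 5 related gene lists (x axis), 1 point per gene, filled where the 4 libraries of one set lie wholly above or below the other 4. Filled points of the ER list are all above 0, HSPA5 lies above 1, and HSPB1 and DNAJB1 lie below 0.

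Other genes of ER protein folding followed HSPA5. Of a list of 20 ER chaperones and unfolded protein response genes, 15 were higher in the set of WT clone 11 without overlap and 0 were lower, beside the 14.1% and 15.1% of all genes given above. The list was drawn up with results of these data known, and its genes were chosen for function. Selected after their values were seen, as the genes of this list with the largest ratios, CALR (a lectin-like calcium-binding chaperone) had a ratio of 1.94 and HSP90B1 (the ER Hsp90) had a ratio of 1.90. The 5 genes that overlapped were SDF2L1, DNAJB9, HERPUD1, XBP1 and EDEM1, with ratios from 1.06 to 1.37. In the promoter table, which held 19 of the 20 genes, a CCAAT box was in 18 and the ER stress element in 5, against 32% and 0.074% of all promoters. The unfolded protein response acts through this element, so its share in the list follows in part from how the genes were chosen. No gene of the list of other HSF1-inducible genes held the ER stress element, while 3 of its 15 promoters held the heat shock element of 3 units. Of 17 genes of that list, 2 were higher in the set of WT clone 11 without overlap and 2 were lower. Picked out after its value was seen, SERPINH1, an ER chaperone of collagen whose promoter is one of those 3, stood at 417 to 636 CPM in the set of WT clone 11 and at 158 to 289 CPM in the set of WT clone 2. Its ratio of 2.38 was above that of HSPA5. As a description of likeness, the genes closest to HSPA5 in log2 CPM over the 10 libraries, among 14866 genes, were MAGT1 (Pearson r = 0.991), SLC16A1 (0.991), SRPRB (0.990), DERL1 (0.989) and HM13 (0.988). The libraries share clones and the division above, so no p is given.

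Among the chaperones themselves, HSPA1A and HSPA1B were the closest pair over the 10 libraries (r = 0.977), in which reads of near-identical genes may be shared, and HSPA8 and HSPH1 came next (r = 0.937). The most opposed pair was HSPA5 and DNAJB1 (r = -0.65). HSPD1 was the steadiest gene: its 8 untreated libraries ran from 1411 to 1658 CPM, with a median of 1582 CPM and an SD of 0.082 on the log2 scale, against 0.58 for HSPA5. The median SD was 0.20 over the 10 chaperones and 0.18 over the 5191 genes that were at least as abundant as the lowest of them.

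Whether loss of the glycosylases moved chaperone transcripts was asked by comparing each knockout with WT in 1 edgeR fit of the 8 untreated libraries. No chaperone met the criterion of the study, an unadjusted P of at most 0.05 with a log2 fold change beyond 1, in any of these comparisons, and 0 had a Benjamini-Hochberg adjusted p of at most 0.05. In the whole table the criterion called 1.19% of genes for MUTYH knockout, 1.67% for OGG1 knockout and 1.77% for DKO, each against WT. BAG3 in DKO was the 1 chaperone with an unadjusted P of at most 0.05 in these comparisons, in edgeR and in DESeq2, and it did not have one without a filter on low counts or with any 1 of the WT or DKO libraries left out. Over all 17881 genes, 526 had an unadjusted edgeR P of at most 0.05 in DKO against WT. The 3 comparisons share the WT libraries.

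Apart from BAG3 in DKO, the fold changes were not large beside their errors. On the log2 scale those of all 10 chaperones ran from -0.12 to 0.13 in MUTYH knockout, from -0.21 to 0.24 in OGG1 knockout and from -0.02 to 0.44 in DKO. For 9 of the 10 chaperones the 95% confidence interval lay wholly inside a 2-fold change in each of these comparisons. The exception was HSPA5, whose standard error of 0.58 left, in DKO, an interval from -1.39 to 1.34. With the 2 sets of libraries as a block, its log2 fold change in DKO was -0.07 ± 0.16 (SE) with an interval from -0.46 to 0.31, and all 10 intervals lay inside a 2-fold change in each comparison. This block was found in these same data. Standard errors, intervals and P of the fits with it may therefore be too small.

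BAG3, which links Hsp70 to the small heat shock proteins and to selective autophagy, had the largest log2 fold change of the chaperones. It stood at 38.6 and 44.3 CPM in WT clones 11 and 2, 41.2 and 45.2 CPM in MUTYH knockout clones 7 and 8, 39.4 and 52.1 CPM in OGG1 knockout clones 1 and 22, and 58.1 and 53.5 CPM in DKO clones 4 and 14. Both DKO libraries lay above the other 6 untreated libraries. The log2 fold change of DKO against WT was 0.44 ± 0.17 (SE; interval 0.03 to 0.85; edgeR adjusted p = 1), and 0.45 ± 0.13 with the sets as a block (edgeR adjusted p = 0.58). It did not pass the adjustment over 17881 genes. Leaving out 1 library at a time gave 0.35 to 0.53.

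The inducible Hsp70 genes differed mainly between the clones of OGG1 knockout and between those of DKO. HSPA1A stood at 295 and 283 CPM in WT clones 11 and 2, 300.5 and 286 CPM in MUTYH knockout clones 7 and 8, 263 and 349.9 CPM in OGG1 knockout clones 1 and 22, and 378 and 295 CPM in DKO clones 4 and 14. The spread between the clones of OGG1 knockout and of DKO exceeded the difference between genotype means. HSPA1B, at 113 to 164 CPM, kept the same order within OGG1 knockout and DKO, and its DKO libraries (164 and 139 CPM) lay above both WT libraries (130 and 136 CPM). The log2 fold change in DKO was 0.23 ± 0.19 for HSPA1A (interval -0.22 to 0.68) and 0.20 ± 0.18 for HSPA1B (interval -0.23 to 0.63), with an edgeR adjusted p of 1 for both.

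Genes whose libraries did not overlap between groups made up 21.4% of all genes for MUTYH knockout, 25.1% for OGG1 knockout and 26.0% for DKO, each against WT. Among the chaperones there were 0 for MUTYH knockout, 1 for OGG1 knockout (HSP90AA1) and 2 for DKO (HSPA1B and BAG3), which is near or below those shares. HSP90AA1 stood at 2808 and 2573 CPM in OGG1 knockout clones 1 and 22 against 2880 and 2853 CPM in WT clones 11 and 2, and its log2 fold change was -0.09 ± 0.25 (edgeR adjusted p = 0.999). In MUTYH knockout HSP90AA1 was at 3144 CPM in clone 7 and 2078 CPM in clone 8, the lowest of the untreated libraries.

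The effect of losing MUTYH in cells that already lacked OGG1 was read from DKO against OGG1 knockout. Both DKO clones came from 1 OGG1 knockout clone, so the comparison also includes a clone that is not their parent. The sample labels do not name the parent. The paper lists it as its OGG1 clone 2, with a product number that ends in 22, as the label of clone 22 does. The criterion called 1.44% of genes and 0 chaperones, and none had an unadjusted P of at most 0.05 in edgeR or DESeq2. Groups did not overlap for 24.3% of genes and for 1 chaperone, BAG3 (log2 fold change 0.30 ± 0.17, interval -0.11 to 0.71). Leaving out OGG1 knockout clone 1 gave 0.12 for this gene, and leaving out clone 22 gave 0.50. HSPH1 stood at 481 and 336 CPM in DKO clones 4 and 14 and at 389 and 269 CPM in OGG1 knockout clones 1 and 22. The groups overlap, but within each set DKO was the higher. Its log2 fold change was 0.32 ± 0.32 without a block and 0.32 ± 0.09 with the sets as a block (edgeR adjusted p = 1 and 0.635). HSPH1 did not pass the adjustment in either fit. Leaving out 1 library at a time gave 0.04 to 0.62, with 0.62 without OGG1 knockout clone 1 and 0.07 without clone 22. With the block, 2 chaperones, HSPH1 and BAG3, had an unadjusted edgeR P of at most 0.05, as did 1355 of all 17881 genes. Without the block 469 of all genes had one. The P with the block may be too small because the block was found in these same data.

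The interaction contrast took the log2 fold change of DKO against OGG1 knockout and subtracted that of MUTYH knockout against WT, and it called 2.0% of genes and 0 chaperones. None had an unadjusted P of at most 0.05 in edgeR or DESeq2. Log2 values ran from -0.23 for HSPA5 to 0.26 for HSPH1, with standard errors of 0.23 to 0.82. For 4 chaperones (HSPA8, HSPA5, HSPH1 and HSP90AA1) the interval reached beyond a 2-fold difference, so such a difference was not resolved for them at this number of clones.

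**Figure D3:**
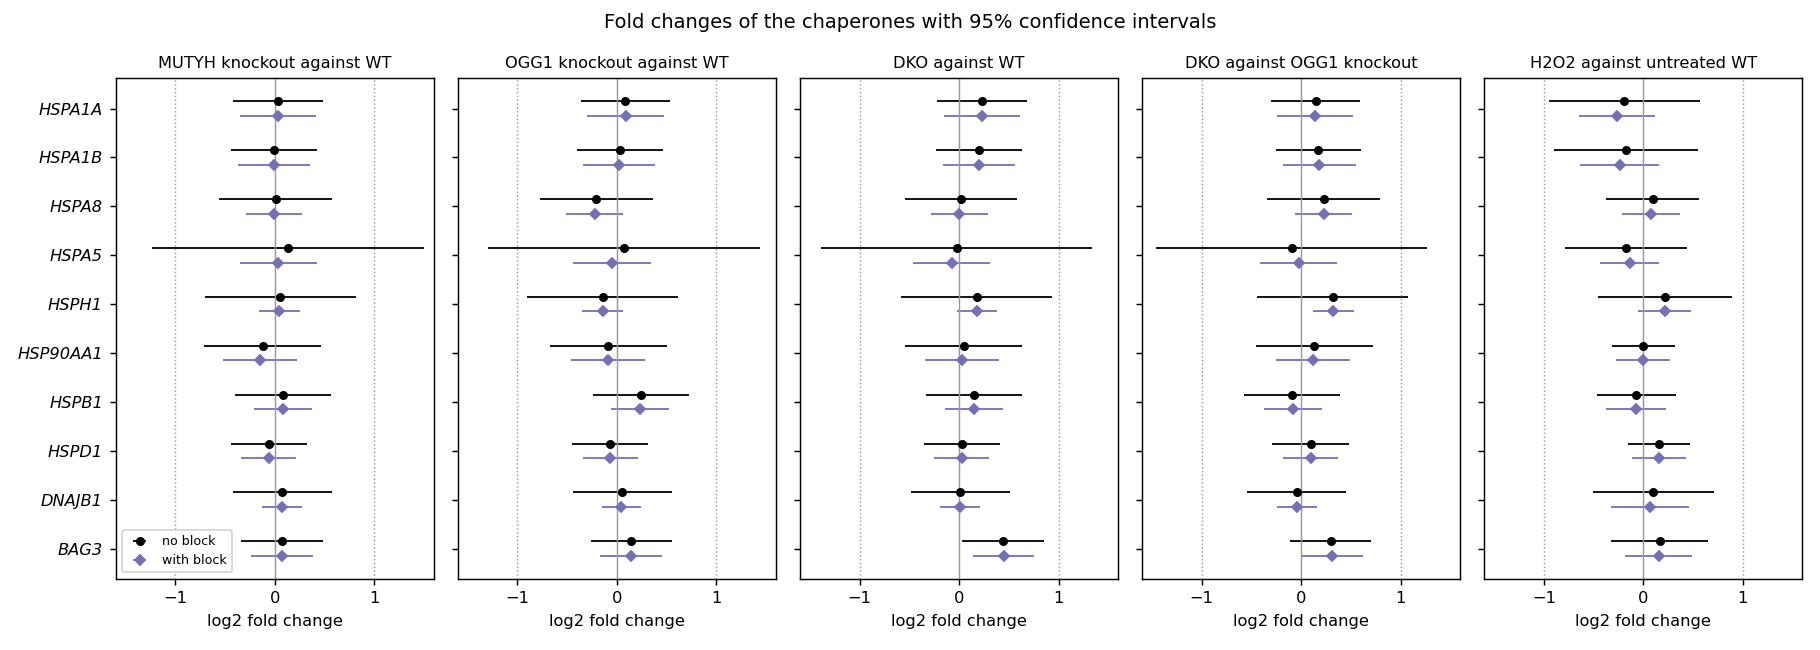
Log2 fold change of each chaperone (x axes) with its 95% confidence interval in 5 comparisons, without a block (black) and with the sets of libraries or, for H2O2, the clone as a block (violet). Dotted lines mark a 2-fold change, no point reaches one, and the black intervals of HSPA5 in the genotype comparisons are the widest.

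The transcripts after 24 hours of H2O2 were compared with untreated WT to see whether oxidative stress moved the chaperones. No chaperone was called, with 1.75% of 16997 genes called without a block, and 0 had an unadjusted P of at most 0.05 in edgeR or DESeq2. Clones 2 and 11 are in both conditions, and with clone as a replicate block 2.78% of genes were called by the criterion and 2.57% had an adjusted p of at most 0.05, again with 0 chaperones in either count and 0 at an unadjusted P of at most 0.05. Log2 fold changes ran from -0.19 for HSPA1A to 0.22 for HSPH1 without a block, and all 10 intervals lay inside a 2-fold change. HSPD1 alone kept its sign in the 4 fits that leave out 1 library, and the other 9 turned in at least 1. For HSPH1 the value was -0.03 without untreated clone 2, -0.12 without treated clone 11, 0.52 without untreated clone 11 and 0.48 without treated clone 2. With the replicate block the extremes were -0.27 ± 0.18 for HSPA1A (edgeR adjusted p = 0.427) and 0.21 ± 0.12 for HSPH1 (edgeR adjusted p = 0.352).

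The clones went opposite ways for most chaperones. HSPA1A went from 283 CPM untreated to 175 CPM treated in clone 2, and from 295 to 333 CPM in clone 11. The treated clone 2 library was below all 8 untreated libraries, and the treated clone 11 library was within their range. On the log2 scale the changes were -0.70 and 0.17. HSPA1B went with it, from 136 to 83.4 CPM in clone 2 and from 130 to 153 CPM in clone 11. Leaving out the treated clone 2 library turned the HSPA1A log2 fold change from -0.19 to 0.20, and leaving out the treated clone 11 library gave -0.74.

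The Hsp70 partners DNAJB1 and BAG3 differed between the clones in the same direction. DNAJB1 went from 98.0 to 74.8 CPM in clone 2 and from 81.2 to 117 CPM in clone 11, so that the treated libraries were the lowest and the highest of all 10. BAG3 went from 44.3 to 39.7 CPM in clone 2 and from 38.6 to 53.5 CPM in clone 11. HSPB1 went from 339.8 to 274 CPM in clone 2 and from 296 to 333 CPM in clone 11. HSPA5 was the reverse, at 586 and 626 CPM in clone 2 before and after treatment and at 934 and 727 CPM in clone 11, so the treated clones lay closer together than the untreated ones.

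The remaining genes differed less, or alike in both clones. HSPD1 went from 1583 to 1779 CPM in clone 2 and from 1581 to 1760 CPM in clone 11, and both treated libraries were above all 8 untreated ones. Its log2 fold change was 0.16 ± 0.12 (interval -0.15 to 0.47; edgeR adjusted p = 0.756). HSPH1 went from 298 to 339 CPM in clone 2 and from 430 to 511 CPM in clone 11, the highest of all libraries. HSPA8 went from 2662 to 2518 CPM in clone 2 and from 2876 to 3404 CPM in clone 11. HSP90AA1 stood at 2853 and 2820 CPM in clone 2 and at 2880 and 2919 CPM in clone 11.

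Altogether the change had opposite signs in the clones for 8 of the 10 chaperones, against 34.4% of all genes, though for HSP90AA1 both changes were within 0.02 on the log2 scale. The median change over the chaperones was 0.20 in clone 11 and -0.12 in clone 2, beside 0.01 over all genes in both. With 1 library per clone and condition, a difference between clones and a difference between single cultures cannot be told apart, and no test of it can be made. The untreated libraries of clones 2 and 11 also lie in different sets. The part of that division in the change of each clone cannot be told apart either. Mitochondrial genes took 5.02% of counts in untreated and 3.38% in treated clone 2, and 5.14% and 2.995% in clone 11.

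Set against all 8 untreated libraries, the treated clone 2 library was above them for 1 chaperone (HSPD1) and for 19.5% of genes, and below them for 4 (HSPA1A, HSPA1B, HSPB1 and DNAJB1) and for 15.5% of genes. The treated clone 11 library was above them for 4 (HSPA8, HSPH1, HSPD1 and DNAJB1) and for 16.4% of genes, and below them for 0 and for 14.4% of genes. Treated and untreated WT libraries did not overlap for 1 chaperone, HSPD1, and for 41.1% of genes.

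**Figure D4:**
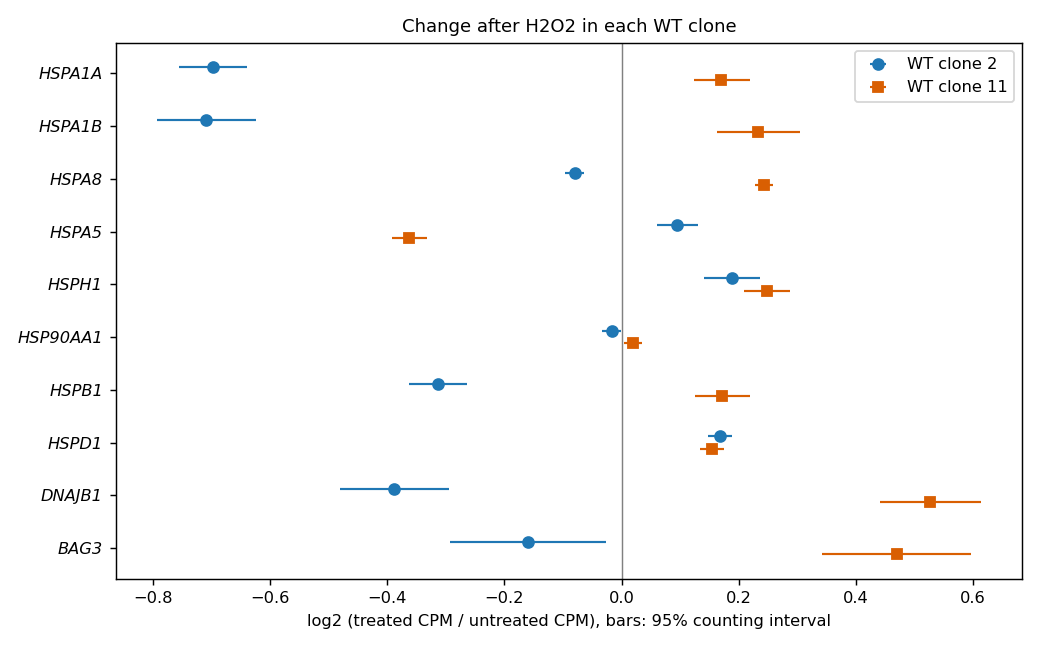
Log2 ratio of treated to untreated CPM (x axis) for each chaperone in WT clone 2 (circles) and WT clone 11 (squares), 1 library per clone and condition, with 95% intervals that cover counting error only. HSPA1A, HSPA1B, HSPB1, DNAJB1 and BAG3 are to the left of 0 in clone 2 and to the right in clone 11, HSPA5 is the reverse, and HSPH1 and HSPD1 are to the right in both.

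Among the lists of related chaperone genes, calls were confined to the other HSF1-inducible genes. Of 18 such genes, 17 were tested among genotypes and 16 after H2O2. Without a block, 1 of the 17 was called in MUTYH knockout and 1 of the 16 after H2O2, beside 1.19% and 1.75% of all genes. CRYAB, a small heat shock protein, met the criterion in MUTYH knockout (log2 fold change 2.77 ± 1.02, edgeR adjusted p = 0.9997) from 6 and 43 counts in clones 7 and 8 against 4 and 3 counts in WT clones 11 and 2, so clone 8 alone carried most of it. HSPB8, the small heat shock protein that BAG3 binds, met it after H2O2 (2.09 ± 0.67, edgeR adjusted p = 0.638, and 1.99 ± 0.50 with adjusted p = 0.0566 under the replicate block), from 8 counts in each untreated library to 16 in clone 2 and 53 in clone 11. HSPA6, an Hsp70 gene silent in many unstressed cells, met it in MUTYH knockout only with the sets as a block (-1.33 ± 0.56, edgeR adjusted p = 0.997), at 6 counts in both knockout libraries against 8 and 25 in WT clones 11 and 2. With the sets as a block, the criterion called 318 of 17881 genes in MUTYH knockout. CRYAB, HSPB8 and HSPA6 had at most 53 counts in any library.

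No gene was called in the other lists in any comparison or fit, out of 14 heat shock factors and co-chaperones, 20 ER genes, 10 mitochondrial chaperones and proteases and 8 subunits of the TRiC chaperonin, which folds actin and tubulin. After H2O2 the fitted log2 values were above 0 for 8 of 8 TRiC subunits, 8 of 10 mitochondrial genes, 12 of 14 factors and co-chaperones and 12 of 16 HSF1-inducible genes, and for 7 of 20 ER genes. The medians were 0.14, 0.17, 0.15, 0.14 and -0.16 in that order, against 0.00018 over all genes tested. In clone 11 the ER list had a median of -0.29 and in clone 2 of 0.03. In the 3 knockouts the list medians stayed between -0.07 and 0.10, with those of all genes between 0.00079 and 0.015.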

How the data were processed

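The authors deposited whole-number read counts per gene and library, made by aligning DNBseq reads to GRCh38 with HISAT2 2.2.1 and counting with featureCounts of Rsubread. The strand setting is not given in the sources used here. The 2 untreated WT columns were identical in both tables and were used once. Per the labels, each library is a clone, and nothing names separate cultures, so p-values measure the spread between these libraries. Reads carry no molecular identifiers, so counting intervals cover counting error only.

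The test of these counts used edgeR 4.0.16 in R 4.3.3 (TMM, filterByExpr, quasi-likelihood F test with legacy=TRUE, two-sided, Benjamini-Hochberg adjustment over all genes tested). The 8 untreated libraries were fitted together (17881 genes, 4 residual degrees of freedom), and treated with untreated WT (16997 genes, 2). Standard errors were derived from the F statistic, and log2 CPM used a prior count of 2. The scripts were tested on simulated counts. Clone numbers pair treated with untreated WT, since the labels give the same clones, and the difference between clones correlated between conditions (Pearson r = 0.68 over 16997 genes). Promoter windows were printed outside annotated exons, except sites of at most 23 bases.

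The members and gene lists were chosen with earlier results of these data known. Named genes were all 10 chaperones, list genes called in a fit with or without a block (at most 5 per list and comparison), and the 5 genes most correlated with the chaperone of largest SD. Alternatives were DESeq2 1.42.0 size factors and Wald test, legacy=FALSE, 2 other filters, HSPA1A and HSPA1B summed, other sets of libraries, blocks, and leaving out each library.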

Additional observations from a re-analysis of the deposited data

Results flagged for a closer look

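The change after H2O2 went opposite ways in the WT clones for 8 of the 10 heat shock chaperones, against 34.4% of all genes. HSPA1A and HSPA1B, between which reads may be shared, are counted separately. The difference between clones was not tested, since each clone had 1 library per condition. Their untreated libraries also lie in different sets. The log2 change in clone 11 minus that in clone 2 was 0.87 for HSPA1A, 0.94 for HSPA1B, 0.91 for DNAJB1, 0.63 for BAG3, 0.48 for HSPB1, 0.32 for HSPA8, 0.036 for HSP90AA1 and -0.46 for HSPA5. Of all 16997 genes, 7.91% differed between the clones by at least as much as HSPA1B, 8.37% by as much as DNAJB1 and 92.0% by as much as HSP90AA1. The sign of HSP90AA1 rests on changes near 0.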

How the results depend on the processing

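No chaperone was called, by the criterion or after adjustment, in any of the 744 values of a chaperone in a comparison under 20 alternatives and left-out libraries, of which 664 kept the sign of the reported value. The largest absolute log2 fold change among them was 0.79. With 1 library left out at a time, the sign turned in at least 1 fit for 10 chaperones in MUTYH knockout. It turned for 7 in OGG1 knockout and 6 in DKO, each against WT. For DKO against OGG1 knockout it turned for 6, for the interaction for 7 and for H2O2 for 9. With clone as a replicate block the H2O2 comparison again called 0 chaperones, while calls over all genes went from 298 to 473. That pairing changed no call of a chaperone. Leaving out libraries called 0 chaperones in every comparison. Chosen after seeing the data, CPM by total counts and DESeq2 size factors gave the same 8 genes with opposite change in the clones and the same 5 genes separating the sets. Over all genes, calls for MUTYH knockout (212) ranged from 86 with at least 10 counts in every library to 702 without WT clone 11, for OGG1 knockout (299) from 123 to 806 under those same alternatives, for DKO against WT (317) from 134 to 705 and for DKO against OGG1 knockout (258) from 111 to 552, both under at least 10 counts and no filter. For the interaction (358), fits without WT clone 2 gave 216 and those without WT clone 11 gave 795, and for H2O2 (298) from 154 with the DESeq2 Wald test to 510 with no filter. A fit that leaves out a library and keeps the clone block has no residual degrees of freedom and was not run. With 2 clones per group, the intervals of HSPA5 among genotypes reached beyond a 2-fold change in both directions without a block, so changes of that size and somewhat larger were not resolved.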

Other observations

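Mitochondrial chaperones and proteases and cytosolic co-chaperones were divided between the sets of untreated libraries in the direction opposite to HSPA5. Selected after their values were seen, 5 of 10 mitochondrial genes were higher in the set of WT clone 2 without overlap and 1 was lower, and 6 of 14 heat shock factors and co-chaperones were higher and 1 was lower, beside the 15.1% and 14.1% of all genes. HSPE1, the co-chaperonin that caps the HSPD1 ring and is transcribed from the neighbouring start on the other strand, stood at 48.1 to 59.5 CPM in the set of WT clone 2 and at 33.7 to 39.8 CPM in the set of WT clone 11, whereas HSPD1 overlapped (1411 to 1658 CPM and 1426 to 1593 CPM). HSPE1 also overlaps the annotated gene HSPE1-MOB4 on its own strand, so its reads may be shared or left uncounted. The part of this in its level and in its difference from HSPD1 was not tested. HSBP1, which binds HSF1, stood at 163 to 194 CPM in the set of WT clone 2 and at 121 to 128 CPM in the set of WT clone 11. The set of WT clone 11 was higher for LONP1, a mitochondrial protease, at 223 to 241 CPM against 194 to 221 CPM, and for STUB1, a ubiquitin ligase bound by Hsp70, at 38.7 to 43.1 CPM against 32.3 to 37.8 CPM.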
